A study of Arabidopsis thaliana with 16 samples.

Results

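The early flavonoid genes and the flavonol MYB genes of Arabidopsis thaliana are 9 of the 33602 genes in the count table. They were set as a list of gene IDs, with earlier results of these data known. Of the products, 6 act in the pathway itself: CHS (chalcone synthase), CHI (chalcone isomerase), CHIL (a chalcone isomerase-like protein without the isomerase activity), F3H (flavanone 3-hydroxylase), F3'H (flavonoid 3'-hydroxylase) and FLS1 (flavonol synthase). The other 3 genes, MYB11, MYB12 and MYB111, encode R2R3-MYB transcription factors. Of the 9 genes, 8 had enough reads to be tested and MYB11 did not.

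RNA was sequenced from whole Col-0 seedlings grown for 6 days at 22 °C in continuous white light. There were 8 groups of 2 libraries. The groups were the triple mutant mrg1 mrg2 pif4, the double mutant mrg1 mrg2, the single mutant pif4 and WT, each given 28 °C for 3 h or left at 22 °C. Genotype and temperature are the only differences that the labels name between groups, and no allele is named. MRG1 and MRG2 encode chromodomain proteins that read methylated histone H3, and PIF4 encodes a bHLH factor that drives growth in warmth. Nothing in the labels ties the 2 libraries of a group to separate plates of seedlings, so the p-values measure only the spread between libraries, which may be technical. A whole seedling is a mixture: fewer cells that use these genes and less RNA per such cell cannot be told apart.

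Flavonols are phenolic compounds that absorb ultraviolet light and quench reactive oxygen. CHS joins a phenylpropanoid unit to malonyl units to make a chalcone, CHI closes it to a flavanone, and CHIL raises the yield of the CHS step. F3H makes dihydroflavonols, F3'H adds a hydroxyl that sets kaempferol-type and quercetin-type products apart, and FLS1 makes the flavonol. MYB11, MYB12 and MYB111 switch on CHS, CHI, F3H and FLS1 without a bHLH partner, whereas the later anthocyanin genes need a complex of MYB, bHLH and WD40 proteins. In light, HY5 promotes this pathway, and PIF factors, like HY5, bind the G-box CACGTG.

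The genes lie apart on 3 chromosomes (RefSeq, build TAIR10.1). CHS (AT5G13930) is on chromosome 5 from 4488476 to 4490264, on the plus strand, with 2 exons. CHIL (AT5G05270) is on chromosome 5 from 1563286 to 1565324, F3'H (AT5G07990) from 2560328 to 2563137 and FLS1 (AT5G08640) from 2803833 to 2805606, all on the plus strand. MYB111 (AT5G49330) is on the minus strand of chromosome 5 from 19998823 to 20001572. On chromosome 3 lie CHI (AT3G55120, minus strand, 20430059 to 20431597), F3H (AT3G51240, plus strand, 19025192 to 19026872) and MYB11 (AT3G62610, plus strand, 23154630 to 23156585). MYB12 (AT2G47460) is on chromosome 2 from 19476326 to 19479597, on the plus strand.

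Promoters of the 9 genes are given where they hold the G-box, CACGTG, in the 250 bases before the annotated gene start. CHS, CHIL, F3H and MYB12 do so, 4 of the 9, and 6.49% of 27443 such windows of all nuclear protein-coding genes do. The windows are, from RefSeq TAIR10.1, chr5:4488226-4488475 for CHS, chr5:1563036-1563285 for CHIL, chr3:19024942-19025191 for F3H and chr2:19476076-19476325 for MYB12, all on the plus strand and written 5′ to 3′. Capitals mark CACGTG, which reads the same on both strands, and in F3H also CATGTG, the reverse complement of CACATG.
CHS: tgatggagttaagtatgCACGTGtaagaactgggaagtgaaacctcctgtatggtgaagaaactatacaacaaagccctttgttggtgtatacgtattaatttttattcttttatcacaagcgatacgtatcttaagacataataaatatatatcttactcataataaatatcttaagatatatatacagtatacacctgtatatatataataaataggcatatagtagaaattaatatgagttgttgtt
CHIL: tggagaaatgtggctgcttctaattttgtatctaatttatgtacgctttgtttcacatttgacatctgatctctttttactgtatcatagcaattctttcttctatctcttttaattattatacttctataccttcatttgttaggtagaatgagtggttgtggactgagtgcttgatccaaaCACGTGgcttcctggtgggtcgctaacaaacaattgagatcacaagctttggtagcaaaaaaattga
F3H: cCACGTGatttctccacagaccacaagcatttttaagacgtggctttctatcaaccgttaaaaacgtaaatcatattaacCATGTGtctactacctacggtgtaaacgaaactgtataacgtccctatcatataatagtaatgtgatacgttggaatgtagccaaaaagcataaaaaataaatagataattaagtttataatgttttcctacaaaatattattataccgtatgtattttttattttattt
MYB12: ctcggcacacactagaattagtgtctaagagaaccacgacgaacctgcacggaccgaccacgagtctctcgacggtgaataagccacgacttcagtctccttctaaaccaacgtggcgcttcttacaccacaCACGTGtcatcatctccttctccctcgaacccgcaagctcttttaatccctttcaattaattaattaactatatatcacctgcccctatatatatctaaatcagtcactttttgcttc
The G-box starts 233 bases before the gene start in CHS, 67 in CHIL, 249 in F3H and 118 in MYB12. CACATG, searched on both strands, is in the window of F3H alone among the 9 and in 11.1% of all windows. AC elements, letters associated with MYB binding, were also searched on both strands: AC-I is ACCTACC; AC-II is ACCAACC; AC-III is ACCTAACC. They are in the windows of 0 of the 9 genes, and 4.35% of all windows hold at least 1 of the 3. These are matches of letters only. CHI, F3'H and FLS1, which fell with warmth, have no G-box match in the window. MYB12 has one and passed with warmth in no genotype. The part of such matches in the changes was not tested.

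Library totals ran from 7186066 to 11363353 counts, so that a floor of 3 counts corresponded to 0.253 to 0.433 CPM (counts scaled to the TMM-adjusted library total; floors cover counting error only). The ribosomal RNA gene AT3G41768 took 4.88% to 9.18% of the reads. MRG1 had 3.08 to 6.64 CPM in the 8 libraries labelled mrg1 mrg2 or mrg1 mrg2 pif4, against 19.6 to 28.3 CPM in the other 8, and MRG2 had 0.212 to 0.885 CPM against 8.02 to 11.6 CPM. PIF4 transcript gave no such check: the libraries labelled pif4 or mrg1 mrg2 pif4 had 77.5 to 84.9 CPM at 28 °C and 25.1 to 41.4 CPM at 22 °C, against 86.2 to 109 CPM at 28 °C and 29.6 to 41.5 CPM at 22 °C in the libraries labelled mrg1 mrg2 or WT. PIF4 differed from WT in pif4 by -0.21 (28 °C) and -0.18 (22 °C) on the log2 scale, neither past the test, and in mrg1 mrg2 pif4 it was 0.28 ± 0.10 higher than in WT at 22 °C (adjusted p = 0.0453). Every direction given below for pif4 or the triple mutant therefore rests on the label.

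CHS was the most abundant of the 9 transcripts in every group. Per kilobase of exon, WT at 22 °C held 219 ± 12.01 CPM per kb of CHS (SD, n = 2). F3H (56.0 ± 1.54), FLS1 (53.6 ± 4.47) and CHIL (51.3 ± 0.19 CPM per kb) came next, and FLS1 overlapped both F3H and CHIL in its libraries. CHI followed at 39.8 ± 2.17 CPM per kb and F3'H at 9.31 ± 1.34. Of the regulators, MYB12 had 6.20 ± 2.09 CPM per kb and MYB111 3.57 ± 1.03, with no overlap between their libraries. MYB11 had 0 to 6 reads in each of the 16 libraries, and 0 reads in all 4 triple mutant libraries, which is within the floor, so its level was not detectable as different between groups at this depth. An overlapping gene on the other strand, AT3G62615, shares 495 bases with MYB11, and it is not used here.

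**Figure D1:**
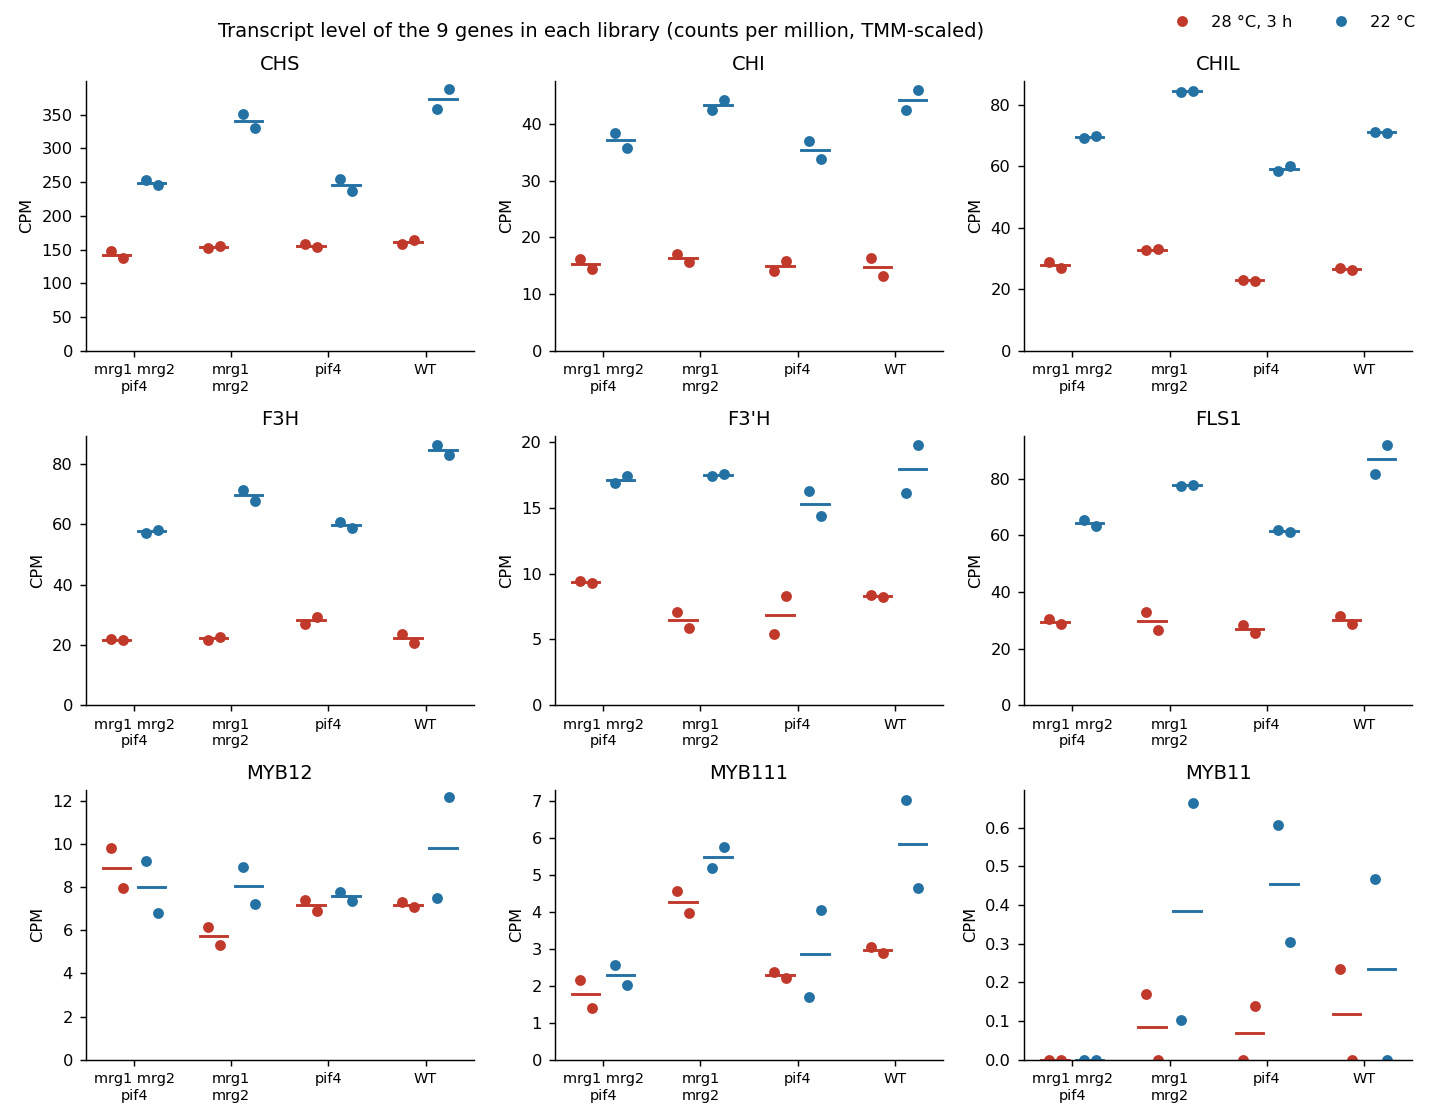
Each point is the level of a gene in 1 library, in CPM on a linear axis from 0, and each line is the mean of the 2 libraries of a group, with 28 °C for 3 h in red and 22 °C in blue. The 6 enzyme-type genes lie lower at 28 °C in every genotype with no overlap, while MYB12 overlaps between temperatures in pif4 and mrg1 mrg2 pif4.

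The first question was what 3 h of warmth did to these genes in each genotype. All 6 enzyme-type genes fell in all 4 genotypes, and the libraries of the 2 temperatures did not overlap for any of them. Including MYB111, 7 of the 8 tested genes fell in WT, and the 6 enzyme-type genes alone fell in mrg1 mrg2 pif4, mrg1 mrg2 and pif4. Of all 20075 genes tested, 14.3% fell in mrg1 mrg2 pif4, 14.1% in mrg1 mrg2, 12.4% in pif4 and 13.7% in WT (10.7%, 11.3%, 12.8% and 15% with library totals as the only scaling). In WT 13.3% rose beside the 13.7% that fell, or 9.16% beside 15% with library totals alone. The median log2 change of the 8 genes was -0.997 in mrg1 mrg2 pif4, -1.37 in mrg1 mrg2, -1.13 in pif4 and -1.31 in WT, where that of all tested genes was 0.01 in each genotype but mrg1 mrg2, which was nearer to 0.

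CHS commits phenylpropanoid units to flavonoids. It had 148 and 137 CPM at 28 °C, against 253 and 245 CPM at 22 °C in mrg1 mrg2 pif4, and 153 and 155 against 351 and 329 CPM in mrg1 mrg2. In pif4 CHS had 158 and 153 CPM at 28 °C, against 255 and 237 CPM at 22 °C. WT had 159 and 164 CPM at 28 °C, against 358 and 387 CPM at 22 °C. The 28 °C levels of the 4 genotypes thus lay close together, and the 22 °C levels were spread, highest in WT. The fall in CHS was -0.81 ± 0.06 on the log2 scale in mrg1 mrg2 pif4 (± is an approximate standard error throughout; adjusted p = 8.45e-14), -1.15 ± 0.06 in mrg1 mrg2 (2.6e-18), -0.66 ± 0.06 in pif4 (1.98e-11) and -1.21 ± 0.06 in WT (6.65e-19).

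F3H had the largest fall of the 8 tested genes in WT. Its libraries had 21.9 and 21.5 CPM at 28 °C, against 57.0 and 58.2 CPM at 22 °C in mrg1 mrg2 pif4, and 21.8 and 22.5 against 71.4 and 67.8 CPM in mrg1 mrg2. Those labelled pif4 had 27.1 and 29.4 CPM at 28 °C, against 60.7 and 58.8 CPM at 22 °C, and WT had 23.5 and 20.8 against 86.1 and 82.8 CPM. Both pif4 libraries stood above all other libraries at 28 °C, and both WT libraries above all others at 22 °C. F3H fell by 1.41 ± 0.09 on the log2 scale in mrg1 mrg2 pif4 (adjusted p = 1.25e-15), by 1.66 ± 0.09 in mrg1 mrg2 (5.88e-18), by 1.09 ± 0.09 in pif4 (1.42e-12) and by 1.93 ± 0.09 in WT (1.39e-19). AT3G51238, an antisense RNA gene, overlaps F3H by 1588 bases; the kit keeps strand but the strand setting of the counting is not given, and the table lists 0 to 6 reads for AT3G51238 per library.

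FLS1, the flavonol-making enzyme, had 30.4 and 28.7 CPM at 28 °C, against 65.2 and 63.1 CPM at 22 °C in mrg1 mrg2 pif4, and 33.0 and 26.7 against 77.6 and 77.9 CPM in mrg1 mrg2. It had 28.4 and 25.5 CPM at 28 °C, against 62.0 and 61.0 CPM at 22 °C in pif4, and 31.5 and 28.6 against 81.7 and 91.9 CPM in WT. The genotypes overlapped at 28 °C and not at 22 °C, where the triple mutant and pif4 lay closest to each other. The log2 change of FLS1 was -1.12 ± 0.09 in mrg1 mrg2 pif4 (adjusted p = 2.01e-12), -1.37 ± 0.09 in mrg1 mrg2 (5.23e-15), -1.19 ± 0.09 in pif4 (1.24e-12) and -1.53 ± 0.09 in WT (3.84e-16).

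CHI and CHIL, the isomerase and its helper, fell to a similar degree. CHI had 13.1 to 17.05 CPM in the 8 libraries at 28 °C, against 33.9 to 45.9 CPM at 22 °C, and its log2 change was -1.28 ± 0.11 in mrg1 mrg2 pif4, -1.40 ± 0.11 in mrg1 mrg2, -1.25 ± 0.12 in pif4 and -1.57 ± 0.12 in WT. CHIL changed by -1.33 ± 0.08, -1.36 ± 0.08, -1.37 ± 0.09 and -1.42 ± 0.08 in the same order of genotypes, the narrowest spread of changes among the 6. Its level was highest in mrg1 mrg2 and lowest in pif4 at both temperatures: 32.7 and 33.0 CPM in mrg1 mrg2 and 23.1 and 22.8 CPM in pif4 at 28 °C, with 84.2 and 84.5 CPM in mrg1 mrg2 and 58.4 and 59.9 CPM in pif4 at 22 °C. The triple mutant (28.7 and 26.7, 69.1 and 69.9 CPM) and WT (27.0 and 26.1, 71.2 and 70.8 CPM) lay between them at 28 °C and 22 °C.

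F3'H, the least abundant of the 6, had 5.45 to 9.46 CPM at 28 °C, against 14.3 to 19.8 CPM at 22 °C. Its log2 change was -0.87 ± 0.16 in mrg1 mrg2 pif4, -1.41 ± 0.17 in mrg1 mrg2, -1.18 ± 0.18 in pif4 and -1.12 ± 0.17 in WT. The adjusted p for CHI, CHIL and F3'H in the 4 genotypes ran up to 4.91e-05, and each of the 24 falls of the 6 genes passed under every alternative processing tried.

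Changes of the regulators were smaller. MYB111 fell in WT by 0.95 ± 0.32 on the log2 scale (adjusted p = 0.0214), from few reads: its libraries had 3.06 and 2.88 CPM at 28 °C (26 and 20 reads), against 7.01 and 4.64 CPM at 22 °C (60 and 45 reads). This call was lost with DESeq2 and without WT replicate 1 at 22 °C or either WT library at 28 °C, with an adjusted p of up to 0.265. In mrg1 mrg2 pif4, MYB111 had 2.17 and 1.40 CPM at 28 °C, against 2.57 and 2.02 CPM at 22 °C. In mrg1 mrg2 it had 4.56 and 3.97 against 5.18 and 5.75 CPM, and in pif4 2.37 and 2.21 against 1.70 and 4.04 CPM. None of these 3 passed, and their 95% intervals reached from -1.21 to 0.41, -0.90 to 0.21 and -1.12 to 0.39.

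MYB12 passed in none of the 4 genotypes. It had 9.81 and 7.95 CPM at 28 °C, against 9.20 and 6.79 CPM at 22 °C in mrg1 mrg2 pif4, and 6.16 and 5.34 against 8.92 and 7.19 CPM in mrg1 mrg2. The pif4 libraries had 7.41 and 6.90 CPM at 28 °C, against 7.77 and 7.38 CPM at 22 °C, and WT had 7.29 and 7.07 against 7.48 and 12.2 CPM. MYB12 overlapped between temperatures in mrg1 mrg2 pif4 and pif4, and lay lower at 28 °C without overlap in mrg1 mrg2 and WT. Its log2 change in WT was -0.46 ± 0.22 (95% interval -0.91 to -0.02, adjusted p = 0.117), and it rested on the WT libraries at 22 °C: it was -0.76 without replicate 1 and -0.06 without replicate 2, with an adjusted p of 0.0177 to 0.913 over the alternatives.

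**Figure D2:**
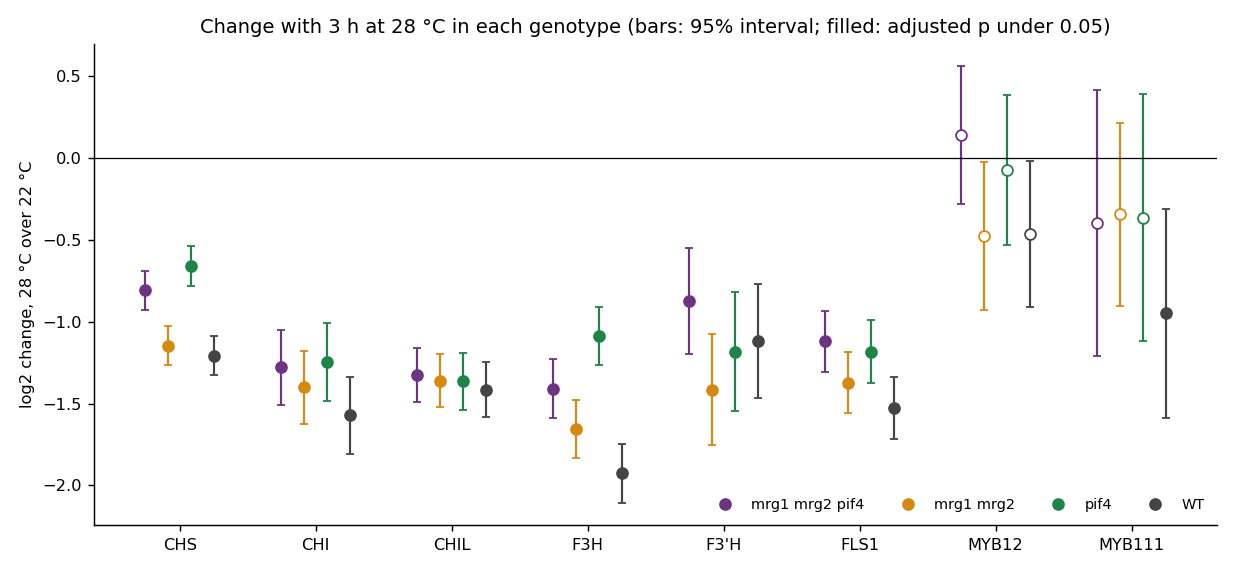
The log2 change of each tested gene, 28 °C over 22 °C, is drawn with its 95% interval in mrg1 mrg2 pif4, mrg1 mrg2, pif4 and WT, from left to right within each gene, with filled points for an adjusted p under 0.05. CHS and F3H changed least in pif4 (-0.66 and -1.09) and most in WT (-1.21 and -1.93), while CHIL lay between -1.33 and -1.42 in all 4.

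The enzyme genes did not all fall by the same amount within a library. The log2 ratio of F3H to CHS reads was -2.98 to -2.38 in the 8 libraries at 28 °C, against -2.30 to -2.01 in the 8 at 22 °C, with no overlap in any genotype. Within pif4 it was -2.54 and -2.38 at 28 °C, against -2.07 and -2.01 at 22 °C, and within WT -2.76 and -2.98 against -2.06 and -2.22. Thus F3H fell by a larger proportion than CHS with warmth in all 4 genotypes, in a ratio that library scaling does not touch. The log2 ratio of MYB12 to MYB111 reads was 2.18 and 2.51 in mrg1 mrg2 pif4 at 28 °C, 1.65 and 1.64 in pif4, 0.43 and 0.43 in mrg1 mrg2, and 1.25 and 1.29 in WT. At 22 °C it was 1.84 and 1.75 in the triple mutant and 0.78 and 0.32 in mrg1 mrg2. It spread over 2.19 and 0.87 in pif4 and over 0.09 and 1.39 in WT. This ratio rests on 14 to 60 MYB111 reads per library, and its differences between genotypes were not tested.

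**Figure D3:**
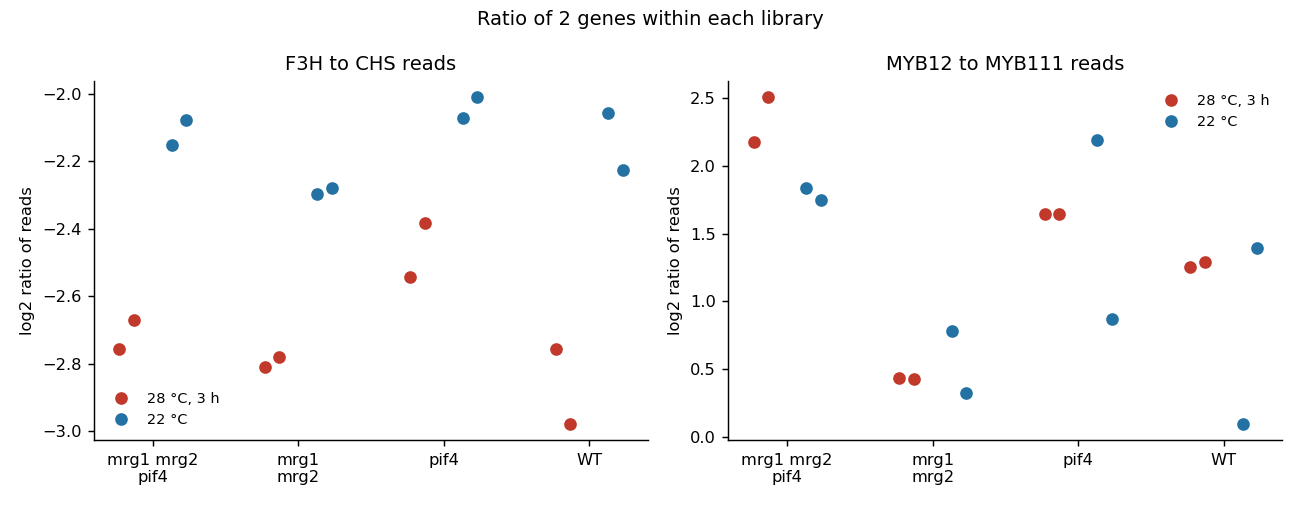
Points are log2 ratios of the reads of 1 gene to another in each library, at 28 °C (red) and 22 °C (blue). F3H to CHS is lower at 28 °C in every genotype. Among the 28 °C libraries MYB12 to MYB111 is highest in mrg1 mrg2 pif4 and lowest in mrg1 mrg2, from 16 to 54 MYB111 reads per library.

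Other tissues' markers moved with temperature as well. The summed level of 4 mesophyll markers was 12925 to 12978 CPM in WT at 28 °C, against 8134 to 8203 CPM at 22 °C, and that of 5 root markers was 2026 to 2057 against 3136 to 3193 CPM. For pif4 the mesophyll sums were 14977 to 15248 against 11103 to 11268 CPM and the root sums 2456 to 2470 against 2352 to 2384 CPM. In mrg1 mrg2 pif4 the mesophyll sums were 12303 to 12374 against 10612 to 10825 CPM. The root sums there were 2271 to 2344 against 2713 to 2783 CPM. In mrg1 mrg2 the mesophyll sums were 12644 to 13297 against 9888 to 9918 CPM. The root sums there were 2044 to 2087 against 2416 to 2491 CPM. LHCA4, LHCB4.2 and PSAF rose with warmth in every genotype. CA1 rose in WT and pif4, changed by -0.15 on the log2 scale in mrg1 mrg2 pif4, and did not pass in mrg1 mrg2 (-0.03). The root markers did not move as 1. In pif4 IRT1 fell by 3.54 and NRT2.1 by 3.47 on the log2 scale with warmth while EXPA7 rose by 0.79. In WT IRT1, PYK10, EXPA7 and COBL9 fell. A sum weighs its most abundant genes most. PYK10 changed with warmth by -0.62 in WT and by 0.08 in pif4, where it did not pass. It changed by -0.24 in mrg1 mrg2 pif4 and -0.23 in mrg1 mrg2, each time in the direction of the root sum. Epidermis markers (4 genes) summed to 1144 to 1147 CPM in WT at 28 °C, against 954 to 958 CPM at 22 °C, and the phloem gene SUC2 had 78.2 to 89.2 against 112 to 115 CPM. SUC2 fell in every genotype. In pif4 the epidermis sums were 1169 to 1200 against 1055 to 1056 CPM. In mrg1 mrg2 pif4 they were 986 to 989 against 966 to 981 CPM. In mrg1 mrg2 they were 962 to 995 against 923 to 938 CPM. CER6 rose with warmth in every genotype. PDF1 rose by 0.39 on the log2 scale in WT and fell by 0.16 in mrg1 mrg2. All mesophyll, root, epidermis and phloem markers had reads in every library. The 4 seed markers summed to 68.9 and 71.6 CPM in pif4 at 28 °C, against 3.84 to 5.34 CPM in pif4 at 22 °C, and stayed at or below 6.78 CPM in every other group. Of these, CRA1 and CRU3 gave most reads, and SESA3 was at 0 in 1 of the 2 pif4 libraries at 28 °C. The part of these shifts in the results was not tested.

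The next question was how the genotypes differed at 22 °C. In pif4, 6 of the 8 tested genes fell relative to WT: CHS, CHI, CHIL, F3H, FLS1 and MYB111. Of all tested genes 5.05% fell and 5.8% rose (6.9% and 2.78% with library totals as the only scaling). CHS was at 246 ± 12.7 CPM in pif4 and 373 ± 20.4 CPM in WT (SD, n = 2 each), a log2 difference of -0.60 ± 0.06 (adjusted p = 4.59e-10). F3H differed by -0.50 ± 0.08 (1.69e-05) and FLS1 by -0.50 ± 0.09 (6.02e-05), and these 3 passed under every alternative. The calls for CHIL (-0.26 ± 0.08, adjusted p = 0.0196), CHI (-0.32 ± 0.10, 0.0343) and MYB111 (-0.96 ± 0.30, 0.0338) were lost with DESeq2. The first 2 were also lost without any 1 of the 4 libraries, and MYB111 without WT replicate 1 or pif4 replicate 1, which held 14 MYB111 reads where pif4 replicate 2 held 40. F3'H (-0.24, 95% interval -0.54 to 0.07) and MYB12 (-0.39, -0.82 to 0.04) did not pass.

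In the triple mutant at 22 °C, CHS, F3H, FLS1 and MYB111 fell relative to WT, 4 of 8, where 7.55% of all tested genes fell. CHS had 249 ± 5.42 CPM in mrg1 mrg2 pif4 and 373 ± 20.4 CPM in WT (-0.58 ± 0.06, adjusted p = 7.18e-10). F3H differed by -0.55 ± 0.08 (2.14e-06), FLS1 by -0.44 ± 0.09 (2.8e-04) and MYB111 by -1.33 ± 0.32 (0.00266). MYB111 had 24 and 19 reads in the triple mutant, against 60 and 45 in WT, and its call was lost without WT replicate 1 or triple mutant replicate 2 (adjusted p up to 0.0948).

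The double mutant stayed nearer to WT at 22 °C. CHIL rose by 0.25 ± 0.08 (adjusted p = 0.0119) and F3H fell by 0.28 ± 0.08 (0.00772), while 12.3% of all tested genes rose and 12.2% fell, so that 1 of 8 in each direction is close to the background. The CHIL call was lost with library totals as the only scaling, with DESeq2 and without any 1 of the 4 libraries. F3H was lost without WT replicate 1 or mrg1 mrg2 replicate 2. CHS had 340 ± 15.5 CPM in mrg1 mrg2 and 373 ± 20.4 CPM in WT (-0.13, 95% interval -0.25 to -0.01, adjusted p = 0.0935). Among the other tissues' markers at 22 °C, the mesophyll sum was 10612 to 10825 CPM in mrg1 mrg2 pif4, 9888 to 9918 in mrg1 mrg2, 11103 to 11268 in pif4 and 8134 to 8203 in WT. Root sums were 2713 to 2783, 2416 to 2491, 2352 to 2384 and 3136 to 3193 CPM in the same order. WT thus had the lowest mesophyll and the highest root sum at 22 °C. Every mesophyll marker was higher than WT in mrg1 mrg2 pif4 and pif4, while LHCA4 did not pass in mrg1 mrg2 (-0.0009). A sum weighs its most abundant genes most. PYK10 differed from WT by -0.21 in mrg1 mrg2 pif4, -0.37 in mrg1 mrg2 and -0.42 in pif4, in the direction of the root sums. Single root markers went both ways: PYK10 and COBL9 were lower than WT in all 3 mutants and EXPA7 in mrg1 mrg2 and pif4, whereas NRT2.1 was higher by 2.42 in mrg1 mrg2 pif4, 1.94 in mrg1 mrg2 and 2.22 in pif4, and IRT1 passed in none. The part of these levels in the differences from WT was not tested.

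Set against mrg1 mrg2 at 22 °C, the triple mutant was lower in CHS (-0.45 ± 0.06, adjusted p = 3.2e-07), CHIL (-0.28 ± 0.08, 0.0113), F3H (-0.27 ± 0.08, 0.022), FLS1 (-0.28 ± 0.09, 0.0336) and MYB111 (-1.25 ± 0.32, 0.00747). These are 5 of 8, where 4.94% of all tested genes fell and 4.89% rose (2.9% and 4.44% with library totals as the only scaling). Only the CHS call held under every alternative: those of CHIL, F3H and FLS1 were lost with library totals alone and without any 1 of the 4 libraries, those of F3H and FLS1 also with DESeq2, and that of MYB111 without mrg1 mrg2 replicate 2 or triple mutant replicate 2. Against pif4, the triple mutant differed in 0 of 8 genes at 22 °C with edgeR and 0 with DESeq2, where 6.39% of all tested genes were called. Of all tested genes 3.27% rose and 3.12% fell (3.94% and 1.11% with library totals alone). The 1 gene with an unadjusted p under 0.05 was CHIL (0.23 ± 0.08), which passed under 3 alternatives. For CHS the difference between triple mutant and pif4 was 0.02 (95% interval -0.10 to 0.14) and for F3H -0.05 (-0.22 to 0.11).

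At 28 °C the group means of CHS spanned 142 to 161 CPM over the 4 genotypes, against 246 to 373 CPM at 22 °C, but those of F3'H spanned 6.50 to 9.36 CPM against 15.3 to 18.0 CPM and those of MYB12 5.75 to 8.88 against 7.57 to 9.82 CPM. The group means therefore lay closer together in CPM at 28 °C for CHS, where levels were also lower. So did those of CHI (14.8 to 16.4 against 35.4 to 44.2 CPM) and FLS1 (27.0 to 30.0 against 61.5 to 86.8 CPM). The means of F3H, CHIL and MYB111 did too. Those of F3'H and MYB12 did not, but libraries of 1 group spread widely for both. F3'H had 5.45 and 8.27 CPM in pif4 at 28 °C, and MYB12 7.48 and 12.2 CPM in WT at 22 °C. In pif4, 0 of the 8 genes passed against WT with edgeR and 0 with DESeq2, and 2 had an unadjusted p under 0.05, where 1.59% of all tested genes were called (1.17% rose and 0.423% fell, or 0.438% and 0.453% with library totals alone). CHS had 155 ± 3.09 CPM in pif4 and 161 ± 3.59 CPM in WT, a log2 difference of -0.05 (95% interval -0.17 to 0.07). F3H was 0.34 ± 0.10 higher (adjusted p = 0.0623) and passed only with the stricter filter on low counts (0.0466, in a range of 0.0466 to 0.51 over the alternatives). In mrg1 mrg2, CHIL rose by 0.30 ± 0.09 (0.0142), 1 of 8 where 6.69% of all genes rose and 7.4% fell (6.47% and 4.63% with library totals alone), and the call was lost with DESeq2, with only the groups compared in the fit and without any 1 of the 4 libraries. In the triple mutant, CHS fell by 0.18 ± 0.06 (0.0403), 1 of 8 where 6.55% fell and 5.29% rose (2.98% and 6.72% with library totals alone), a call lost with library totals alone, DESeq2, no filter, and without either WT library or triple mutant replicate 2.

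Compared with the other mutants at 28 °C, the triple mutant had less MYB111 than mrg1 mrg2, with 2.17 and 1.40 against 4.56 and 3.97 CPM (-1.30 ± 0.34, adjusted p = 0.00974). That is 1 of 8, where 5.28% of all genes fell and 4.67% rose (2.86% and 4.94% with library totals alone), and it was lost without mrg1 mrg2 replicate 1 or triple mutant replicate 2. F3H was lower in the triple mutant than in pif4 (-0.38 ± 0.09, adjusted p = 0.00652) and CHIL was higher (0.27 ± 0.09, 0.0484), where 6.03% of all genes fell and 3.39% rose. With library totals alone 1.91% fell and 8.12% rose, and the median of all genes moved by 0.13. Both calls were fragile: F3H was lost with library totals alone, without pif4 replicate 2 or triple mutant replicate 2, and CHIL with DESeq2, no filter, only these groups in the fit, and without any 1 of the 4 libraries.

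**Figure D4:**
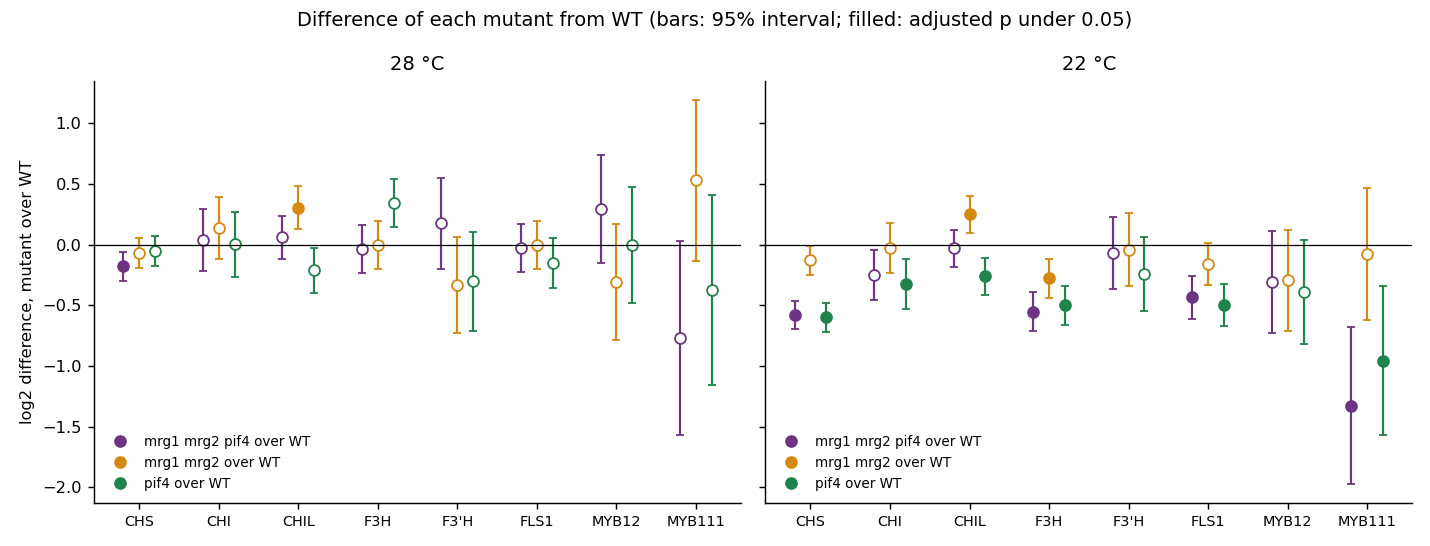
The log2 difference of each mutant from WT is drawn with its 95% interval at 28 °C (left) and 22 °C (right), for mrg1 mrg2 pif4, mrg1 mrg2 and pif4, with filled points for an adjusted p under 0.05. At 22 °C CHS is lower by 0.58 in mrg1 mrg2 pif4 and by 0.60 in pif4, whereas at 28 °C the corresponding differences are -0.18 and -0.05.

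The design then asks whether the change with warmth itself differed between genotypes. In pif4 the warm response of CHS was less negative than in WT by 0.55 ± 0.08 on the log2 scale (adjusted p = 2.47e-05) and that of F3H by 0.84 ± 0.13 (2e-05). These are 2 of 8 genes, where 2.35% of all tested genes had a higher response in pif4 and 1.76% a lower one (1.93% and 0.792% with library totals as the only scaling). Both passed under each of the 16 alternatives. FLS1 differed by 0.34 ± 0.13 (adjusted p = 0.157) and CHIL by 0.05 (95% interval -0.19 to 0.29). For CHS the group means differ mainly at 22 °C, with 246 CPM in pif4 and 373 CPM in WT, and less at 28 °C, with 155 and 161 CPM. For F3H the means at 28 °C were 28.2 ± 1.64 CPM in pif4 and 22.1 ± 1.93 CPM in WT, a difference that did not pass the test. At 22 °C they were 59.7 ± 1.33 and 84.5 ± 2.32 CPM, a difference that passed.

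The triple mutant's responses of CHS and F3H also differed from those of WT, by 0.40 ± 0.08 (adjusted p = 0.00125) and 0.52 ± 0.13 (0.00722), 2 of 8 where 2.37% of all genes had a higher response and 3.47% a lower one (2.82% and 1.33% with library totals alone). The F3H call was lost without WT replicate 2 at 28 °C (0.0764, in a range of 0.00467 to 0.0764 over the alternatives), and FLS1 (0.41 ± 0.13, 0.0574) passed under 5 alternatives. In mrg1 mrg2, 0 of the 8 genes differed in response with edgeR and 0 with DESeq2, and 1, F3H (0.27, 95% interval 0.02 to 0.52), had an unadjusted p under 0.05. Of all tested genes 4.81% were called there, 2.37% higher and 2.44% lower (2.5% and 0.563% with library totals alone). The 3 differences share the WT libraries, so they are not independent of each other.

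The triple mutant was also set against the sum of the mrg1 mrg2 and pif4 differences on the log2 scale, and no departure passed the test in the 8 genes. At 22 °C 0 passed with edgeR and 0 with DESeq2, with 0 at an unadjusted p under 0.05, where 13.2% of all tested genes were called. Of all genes 6.12% lay above and 7.06% below the sum (8.06% and 3.46% with library totals alone, which moved the median of all genes to 0.11). The departure was 0.15 (95% interval -0.01 to 0.32) for CHS and 0.23 (-0.005 to 0.46) for F3H. At 28 °C 0 passed with either tool and 2 had an unadjusted p under 0.05, F3H (-0.37 ± 0.14, adjusted p = 0.138) and F3'H (0.82 ± 0.27, 0.0905), where 3.72% of all genes were called, 1.17% above and 2.56% below (1.5% and 0.732% with library totals alone). Both have 95% intervals without 0, of -0.64 to -0.10 for F3H and 0.26 to 1.37 for F3'H, and F3'H passed without pif4 replicate 2 (1.12, adjusted p = 0.0256, in a range of 0.0256 to 0.465 over the alternatives).

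The steps before and after these genes were described from lists of pathway genes. All 8 general phenylpropanoid genes, which make the substrate of CHS, fell with warmth in WT, where 13.7% of all tested genes fell, with a median log2 change of -0.74 where that of all tested genes was 0.01. PAL1, the main phenylalanine ammonia-lyase, fell by 1.44 ± 0.06 (adjusted p = 9.34e-22), PAL2 by 0.71 ± 0.06, 4CL1 (a coenzyme A ligase) by 0.64 ± 0.06 and 4CL3 by 1.12 ± 0.14. PAL1 had 153 and 150.0 CPM at 28 °C, against 415 and 409 CPM at 22 °C in WT. In pif4 7 of the 8 fell with warmth, where 12.4% of all tested genes fell. At 22 °C 6 of the 8 were lower in pif4 than in WT, 2 of 8 in mrg1 mrg2 pif4 and 4 of 8 in mrg1 mrg2, where 5.05%, 7.55% and 12.2% of all tested genes were lower. PAL1 differed by -0.46 ± 0.05 in pif4, -0.40 ± 0.05 in mrg1 mrg2 pif4 and -0.32 ± 0.05 in mrg1 mrg2.

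Next come genes whose products attach sugars to flavonols or, for RHM1, make a sugar. Of 7 listed, 6 were tested and all 6 fell with warmth in WT (median -1.003), where 13.7% of all tested genes fell. Among them were RHM1, a rhamnose synthase (-0.97 ± 0.06), AT1G06000, a flavonol 7-O-rhamnosyltransferase gene (-1.54 ± 0.10), UGT78D1 (-0.90 ± 0.08) and UGT78D2 (-1.04 ± 0.10). The same 6 fell in pif4 relative to WT at 22 °C (median -0.47), where 5.05% of all genes fell and DESeq2 called 4 of the 6. Of the 5 other flavonol synthase genes 3 were tested and 0 passed with warmth in WT with edgeR and 0 with DESeq2, where 26.9% of all tested genes were called. The 1 with an unadjusted p under 0.05 was FLS3, which lay lower at 28 °C in WT (-0.43, 95% interval -0.80 to -0.06). FLS5 changed by 0.11 ± 0.08 in WT (adjusted p = 0.323), where FLS1 changed by -1.53, and FLS5 rose by 0.67 ± 0.08 in mrg1 mrg2 pif4, 0.44 ± 0.08 in mrg1 mrg2 and 0.56 ± 0.08 in pif4. FLS copies are similar to each other, and how reads shared by copies were counted is not given.

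Later anthocyanin genes fell with warmth too, 5 of 6 tested in WT (8 listed, median -1.49), where 13.7% of all tested genes fell. Among these were DFR, which competes with FLS1 for dihydroflavonols (-1.52 ± 0.28), LDOX (-1.503 ± 0.27) and the transport gene TT19 (-2.31 ± 0.39). At 22 °C the late genes differed from CHS and F3H in where they were high. All 6 rose in mrg1 mrg2 relative to WT (median 1.35), where 12.3% of all genes rose, with DFR at 15.7 and 19.2 CPM in mrg1 mrg2 and 6.54 and 6.18 CPM in WT (1.45 ± 0.18, adjusted p = 5.8e-08). In pif4 0 of the 6 passed at 22 °C with edgeR and 0 with DESeq2, and 1 had an unadjusted p under 0.05, where 10.8% of all tested genes were called. CHS and F3H, as given above, were lower in pif4, and F3H was lower in mrg1 mrg2. CHIL, also an early gene, was higher than WT in mrg1 mrg2, as the late genes were, and lower in pif4. Both CHIL calls were lost with DESeq2.

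Regulators outside the 9 genes changed in part, and their counts in WT stand beside 13.3% of all tested genes that rose with warmth and 13.7% that fell. Of the MYB, bHLH and WD40 genes of the anthocyanin complex, 5 of 9 were tested and 1, GL3, fell with warmth in WT (-1.11 ± 0.39, adjusted p = 0.0289), and DESeq2 called 0. Among 10 repressor genes 1 rose, a share near that of all genes, and 3 fell: AT1G23390, annotated as a Kelch-repeat F-box protein gene, rose by 0.65 ± 0.07 (3.72e-10), and LBD39 (-0.49 ± 0.09), MYB4 (-0.60 ± 0.12) and LBD38 (-0.44 ± 0.09) fell. AT1G23390 was also higher at 22 °C in pif4 (0.38 ± 0.07) and in mrg1 mrg2 pif4 (0.64 ± 0.07) than in WT. Of 11 light-input genes 5 fell with warmth in WT, led by HYH (-1.23 ± 0.15), the homologue of HY5, and RUP2 (-1.28 ± 0.15), a repressor of the ultraviolet receptor UVR8, while BBX24 rose by 0.51 ± 0.06. HY5 fell in pif4 relative to WT at 22 °C by 0.47 ± 0.13 (adjusted p = 0.0111), the 1 call of that list in this comparison, where DESeq2 called 0. Of all tested genes 5.05% fell there.

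**Figure D5:**
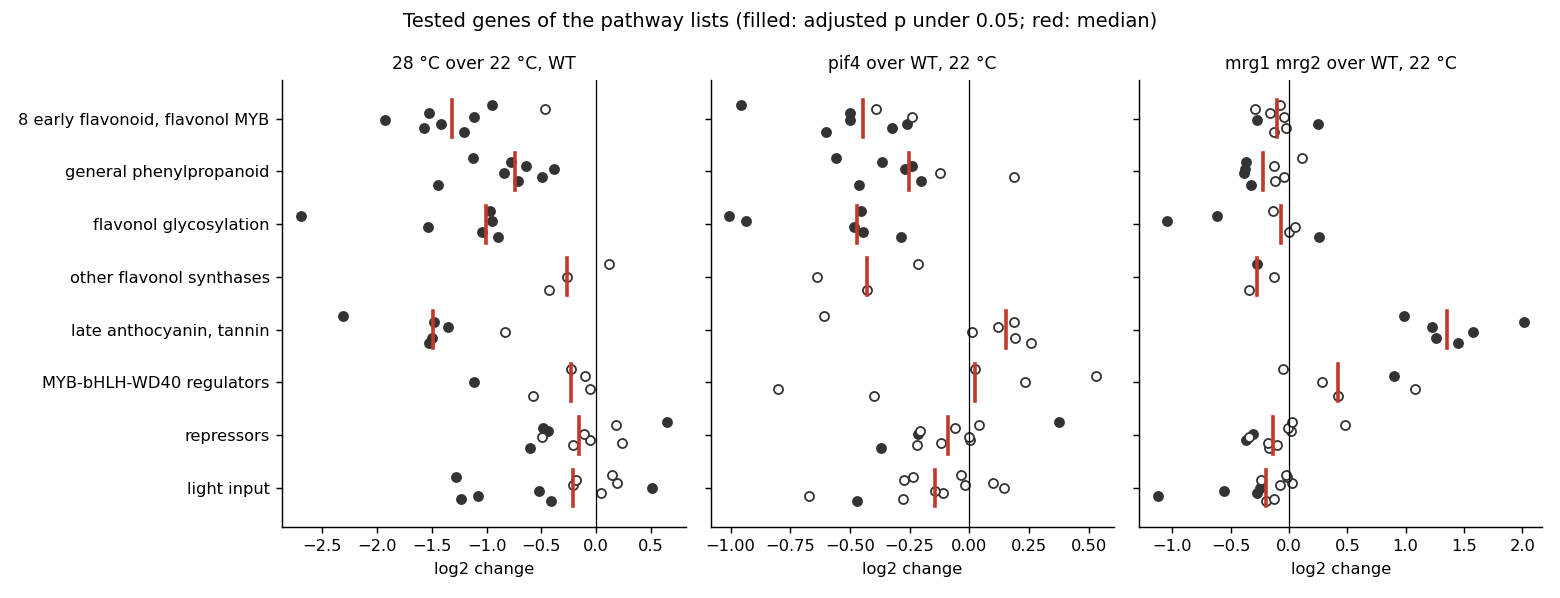
Each point is the log2 change of a tested gene of a list, for 28 °C over 22 °C in WT, pif4 over WT at 22 °C and mrg1 mrg2 over WT at 22 °C; red bars are list medians and the horizontal scales differ. The late anthocyanin list lies at a median of -1.49 with warmth in WT, 0.15 in pif4 and 1.35 in mrg1 mrg2.

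The pattern of the 6 enzyme-type genes was compared with all others by the Pearson correlation of log2 CPM with their mean profile over the 16 libraries, as a description. Across the 16 libraries each of the 6 had r between 0.951 (F3'H) and 0.996 (CHI) with the mean that contains it. Of 15269 genes with a mean of at least 5 CPM, 2.41% had r above 0.9. The libraries form 2 clusters by temperature, and any gene lower at 28 °C shares that split. Of the listed pathway genes, PAL1, PAL2 and RHM1 stood in the top 20. The 5 most alike genes outside the lists were MAT3 (r = 0.992) and SAHH2 (0.989), both of the S-adenosylmethionine cycle, AT1G64390, a glycosyl hydrolase family 9 gene (0.986), AT5G15650, a reversibly glycosylated polypeptide gene (0.985), and RFNR2, a root ferredoxin NADP reductase gene (0.983). Within the 8 libraries at 28 °C the same values were 0.50, 0.02, -0.13, 0.63 and 0.53, and within the 8 at 22 °C 0.85, 0.98, 0.91, 0.62 and 0.82.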

How the data were processed

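RNA-seq of whole seedlings gave 16 libraries in 8 groups of 2. The authors deposited raw counts per gene, with no normalization. Per the submitters' processing notes, cutadapt, HISAT2, SAMtools and featureCounts were used with build TAIR10; their versions, the annotation and the strand setting are not stated there. Of 33602 IDs, 32835 matched the RefSeq TAIR10.1 table, all 9 genes described here among them.

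The tool was edgeR 4.0.16 (R 4.3.3). filterByExpr (minimum count 10, minimum total 15) left 20075 genes, TMM scaled the libraries, and 1 quasi-likelihood fit held all 16 libraries in 8 groups, with 8 residual degrees of freedom. The fit gives a gene the same spread at both temperatures. The 2 libraries of a group differed more at 28 °C: their median chi-square per gene was 0.92 to 1.10, against 0.73 to 0.77 at 22 °C. Intervals may therefore be too narrow at 28 °C and too wide at 22 °C. Each of 19 comparisons used a two-sided F-test with Benjamini-Hochberg adjustment over all genes tested, called at an adjusted p under 0.05. The ± of a log2 change is its size divided by the square root of F, and intervals are 95%. CPM are counts scaled to the TMM-adjusted library total, and values per kb divide these by the exon length in the annotation. The script was tested on simulated data. Alternatives were DESeq2 1.42.0, other scalings and filters, a smaller fit, no AT3G41768, a replicate term, and each library left out. Figures were drawn with matplotlib 3.10.9.

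The genes and pathway lists were chosen with earlier results of these data known. All 9 genes are named, as are up to 4 genes per list and comparison by smallest p. Genes most alike are the 5 with the highest r outside the lists. Where a gene is followed across comparisons, as PAL1, FLS5, AT1G23390 and HY5 are, its further values were picked after being seen.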

Additional observations from a re-analysis of the deposited data

Results flagged for a closer look

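The change with warmth was tested for a difference between each mutant and WT, and the genes below passed that test of the difference itself (edgeR's quasi-likelihood test, adjusted p under 0.05). All values are log2 differences of responses, mutant minus WT. Groups of 2 libraries are too small to test 1 library for standing apart from its group.

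In pif4 the response was higher than in WT for CHS by 0.55 and F3H by 0.84, both described above, for PAL1 by 0.43 and C4H by 0.34 in the general phenylpropanoid steps, for UGT78D2 by 0.49, AT1G06000 by 0.53 and RHM1 by 0.31 in flavonol glycosylation, and for FLS5 by 0.44. In mrg1 mrg2 pif4 it was higher for CHS by 0.40 and F3H by 0.52, for PAL1 by 0.35, RHM1 by 0.37 and FLS5 by 0.55, and for the repressor genes LBD37 by 0.34 and LBD39 by 0.54. In mrg1 mrg2 it was higher for PAL1 by 0.26, AT1G06000 by 0.44, MYBL2 by 0.63 and LBD37 by 0.42. The largest adjusted p among them was 0.0476, for PAL1 in mrg1 mrg2. Since the WT libraries enter all 3 differences, a gene that recurs is not independent evidence.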

How the results depend on the processing

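Of 51 changes called for the 8 tested genes, 556 of 628 alternative values kept direction and call, 72 lost the call and 0 reversed. The calls lost and gained changed these numbers of genes called. With library totals as the only scaling there was 1 for mrg1 mrg2 against WT at 22 °C, 0 for mrg1 mrg2 pif4 against WT at 28 °C, and at 22 °C, for mrg1 mrg2 pif4, 2 against the double mutant and 1 when set against pif4. DESeq2 called 1 for mrg1 mrg2 and 3 for pif4 against WT at 22 °C, 0 for mrg1 mrg2 and 0 for mrg1 mrg2 pif4 against WT at 28 °C, 3 for mrg1 mrg2 pif4 against mrg1 mrg2 at 22 °C and 1 against pif4 at 28 °C. Without a filter there were 0 for mrg1 mrg2 pif4 against WT and 1 against pif4 at 28 °C. The stricter filter (5 CPM in 2 libraries, and fewer genes tested) gave 1 for pif4 against WT at 28 °C, 1 for mrg1 mrg2 pif4 against pif4 at 22 °C and 2 against mrg1 mrg2 at 28 °C. With only the groups compared in the fit there were 0 for mrg1 mrg2 against WT and 1 for mrg1 mrg2 pif4 against pif4 at 28 °C. The cause was not tested.

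Leaving out 1 library at a time gave 0 to 1 for mrg1 mrg2 and 3 to 4 for pif4 against WT at 22 °C, 1 to 2 for mrg1 mrg2 pif4 against mrg1 mrg2 at 22 °C, 0 to 0 for mrg1 mrg2 against WT at 28 °C, and 0 to 1 at 28 °C for the triple mutant set against WT, mrg1 mrg2 or pif4. It gave 1 to 3 for the difference in warm response of mrg1 mrg2 pif4 and 0 to 1 for the departure from additive effects at 28 °C. A lone library left in a group is assumed to vary like the other groups.

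Over all tested genes same-numbered libraries shared little: over 28 pairs of groups their deviations had r from -0.010 to 0.068. The ribosomal RNA gene AT3G41768 nevertheless took a larger share of reads in replicate 2 than in replicate 1 in every group. In WT the shares were 9.09% and 5.96% at 28 °C, and 8.17% and 7.97% at 22 °C. What same-numbered libraries have in common was not tested. With the number as a replicate block, 1 gene passed in mrg1 mrg2 pif4 against pif4 at 22 °C and 1 at 28 °C, and the block changed no other count by more than 1.5 times. MYB111 has 14 to 60 reads per library, which limits its comparisons.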
